A study of Mus musculus with 2 samples.

Results

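Immediate early genes were described across the cell classes of the lateral striatum in a mouse model of stroke at a young age. The 10 genes Fos, Fosb, Jun, Junb, Jund, Egr1, Nr4a1, Atf3, Ier2 and Btg2 were taken by symbol from the 31053 genes of the count tables, and each symbol occurred once. Cells had been measured by droplet single-cell RNA sequencing in 2 libraries, 1 from the ipsilateral hemisphere, where the artery was occluded, and 1 from the contralateral hemisphere. Male C57/BL6 mice had undergone MCAO (middle cerebral artery occlusion) for 60 minutes at p10 (postnatal day 10), with 2 weeks of reperfusion, so that the contralateral library also came from operated animals and no unoperated animal was measured. Lateral striata of 3 animals were pooled per library, and whether the same 3 animals gave both libraries is not stated. Tissue was digested with collagenase and dispase, triturated and passed through a Percoll step before cells carrying A2B5, O4 or both were sorted by FACS. Each side is 1 library, so no test was possible, no p-value is given, and side, library and handling cannot be told apart.

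Immediate early genes are transcribed within minutes of a stimulus from proteins already present in the cell, without new protein synthesis. Their promoters are read by serum response factor with its Elk partners and by CREB, which are switched on by MAP kinase, calcium and cyclic AMP signalling. Fos and Jun proteins pair to form AP-1, a transcription factor that acts on later genes. These genes serve as reporters of neuronal activity. Enzymatic dissociation of brain tissue is known to induce them in glia and endothelial cells, which makes them a common readout of handling.

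The ipsilateral library held 2775 barcodes and 54788795 UMIs (unique molecular identifiers, each standing for 1 captured RNA molecule), against 2066 barcodes and 36063045 UMIs in the contralateral library, with 0 barcodes in common. Barcodes with at least 500 genes and at most 15% mitochondrial UMIs were kept, 2505 ipsilateral with a median of 19851 UMIs and 1913 contralateral with a median of 14595 UMIs. Clusters were named from marker genes and called "-like" because the names rest on RNA alone. Although the labels give oligodendrocyte as the cell type, oligodendrocyte precursor (OPC-like), committed or newly formed, and mature oligodendrocyte-like cells made up 16.0%, 8.38% and 38.0% of ipsilateral kept cells, against 16.6%, 4.97% and 27.4% of contralateral kept cells. Neuroblast-like or progenitor-like cells made up 21.5% and 30.0%, astrocyte-like cells 4.71% and 6.12%, and endothelial-like cells 5.15% and 9.62%, ipsilateral and contralateral in that order. Only 15 ipsilateral and 14 contralateral cells were mural-like, and 5.67% and 4.60% of cells stayed unnamed.

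Promoters of 8 of the 10 genes were matched in RefSeq (GRCm38.p6), in windows of 250 bases before to 50 bases after the annotated start. Some of these starts are not the outer start of the gene in GENCODE M21. The windows of Nr4a1 and Atf3 lie inside the gene span, and that of Jund ends before its gene span begins. The 250 bases before the start are shown for 4 genes that share a motif, the short form TGACG of the cyclic AMP response element (CRE), which CREB binds and which on the other strand reads CGTCA. They include Junb, which was higher on the ipsilateral side in each class, and Nr4a1, which was nearly level. The stretches lie at chr8:84978749-84978998 (minus strand), chr12:85473640-85473889 (plus strand), chr1:134079156-134079405 (minus strand) and chr15:101266596-101266845 (plus strand). Each is printed 5′ to 3′ along the strand of its gene, and capitals mark the short CRE form, or the full CRE TGACGTCA in Btg2.
Junb: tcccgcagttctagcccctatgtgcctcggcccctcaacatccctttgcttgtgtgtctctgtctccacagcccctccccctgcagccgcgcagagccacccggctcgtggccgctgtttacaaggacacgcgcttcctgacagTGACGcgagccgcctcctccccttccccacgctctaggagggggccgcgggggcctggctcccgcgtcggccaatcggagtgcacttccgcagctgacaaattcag
Fos: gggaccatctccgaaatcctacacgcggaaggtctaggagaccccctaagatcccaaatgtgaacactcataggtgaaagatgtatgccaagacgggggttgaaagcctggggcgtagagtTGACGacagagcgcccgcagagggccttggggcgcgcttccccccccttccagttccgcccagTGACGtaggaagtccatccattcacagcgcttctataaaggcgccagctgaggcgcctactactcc
Btg2: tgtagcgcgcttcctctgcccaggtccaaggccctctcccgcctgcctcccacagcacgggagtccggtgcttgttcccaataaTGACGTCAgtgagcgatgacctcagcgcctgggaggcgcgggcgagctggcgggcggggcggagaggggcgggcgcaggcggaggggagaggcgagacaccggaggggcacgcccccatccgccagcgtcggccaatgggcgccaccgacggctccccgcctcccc
Nr4a1: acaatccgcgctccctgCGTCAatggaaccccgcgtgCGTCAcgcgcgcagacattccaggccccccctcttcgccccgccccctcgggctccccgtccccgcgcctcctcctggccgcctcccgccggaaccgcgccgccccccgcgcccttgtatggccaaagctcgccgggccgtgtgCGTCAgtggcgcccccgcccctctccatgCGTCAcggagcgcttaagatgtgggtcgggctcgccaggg

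The short CRE form occurred in 6 of the 8 windows, those of Btg2, Atf3, Fosb, Junb, Fos and Nr4a1, against 20.81% of the 32851 RefSeq windows of the same length. It stood 66 and 129 bases before the start in Fos, 106 bases before it in Junb, and at 4 places in Nr4a1, the nearest 40 bases before the start. The full CRE, which contains the short form on both strands, was found in Btg2 alone among the 8, against 1.79% of all windows. The GC box GGGCGG occurred in 6 of 8 windows, against 35.66% of all. The AP-1 site TGANTCA (7.808% of all windows), the E-box CACGTG (7.15%) and the CArG box, the site of serum response factor (1.629%), had no match in the 8 windows, which says only that these letters are not in these 300 bases. All motifs were searched on both strands, and a match is a description of the letters, not a measured binding site.

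The 10 genes together gave 491745 UMIs in the ipsilateral library, 0.906% of the UMIs of kept cells, against 278012 UMIs in the contralateral library, 0.781%. Their summed level followed cell class far more than side. In CPM, UMIs per 1000000 UMIs of a class, the sum was 27225 ipsilateral and 23375 contralateral in endothelial-like cells, 16905 and 14155 in astrocyte-like cells, and 12881 and 11928 in OPC-like cells. It was 9008 and 7425 CPM in mature oligodendrocyte-like cells and 5832 and 4490 CPM in neuroblast-like cells, the ipsilateral side being the higher in each class. Committed cells were lowest at 2961 CPM ipsilateral and 1639 CPM contralateral. Median mitochondrial shares of the 6 classes lay between 3.99% and 6.19% on the ipsilateral and between 4.20% and 6.47% on the contralateral side.

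**Figure D1:**
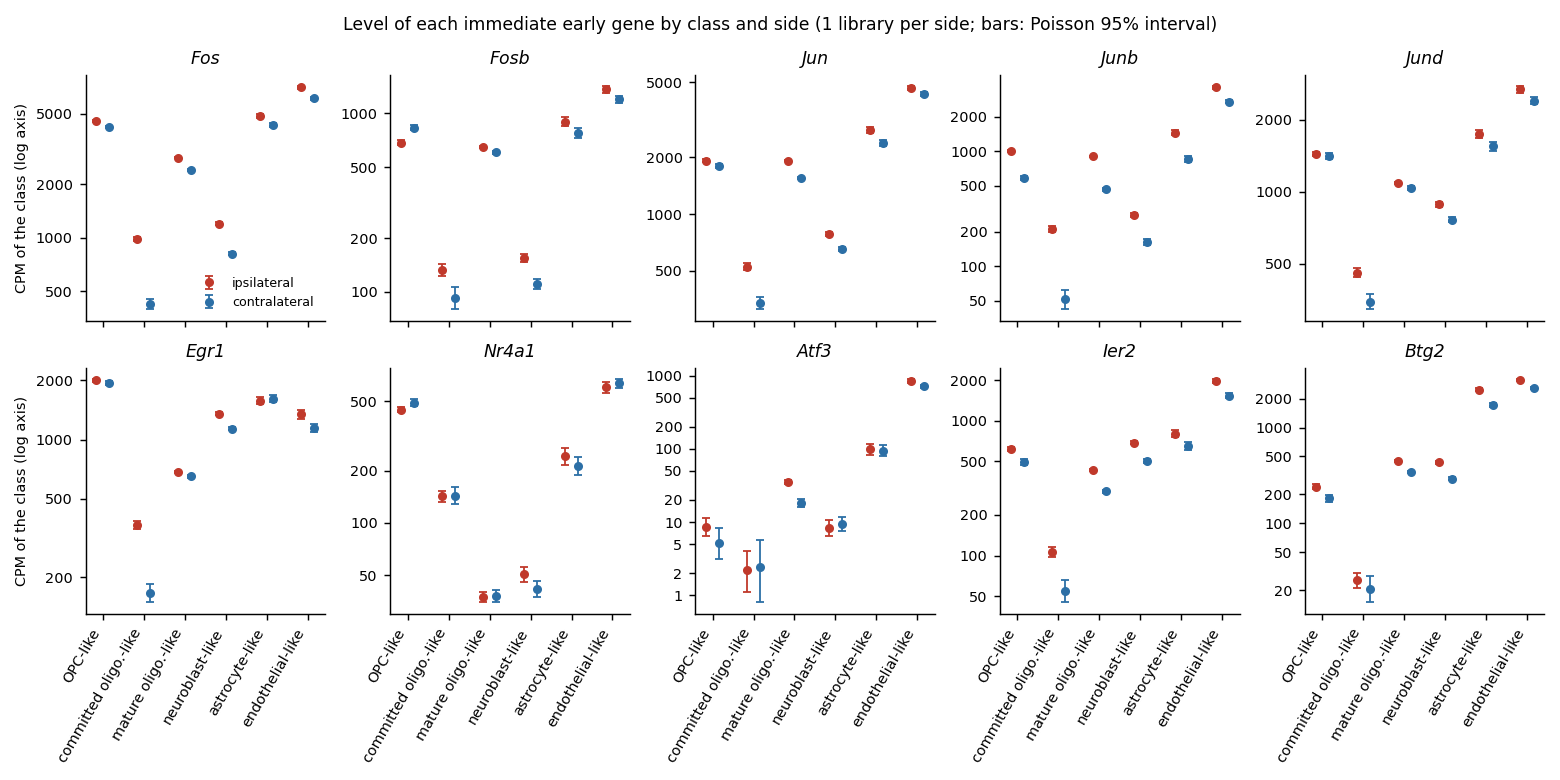
Level of each of the 10 genes in 6 marker-named classes, in CPM of the class on a log axis, with ipsilateral (red, left) and contralateral (blue, right) values and exact Poisson 95% intervals that cover counting error only. Committed oligodendrocyte-like cells (clusters 3 and 7) were lowest for 9 of the 10 genes and endothelial-like cells highest for 9 of the 10, on both sides.

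The named committed class, clusters 3 and 7, had low levels of the 10 genes. On both sides it had the lowest level of the 6 main classes for 9 of 10 genes, the exception being Nr4a1, which was lowest in mature cells. This order depends on cluster 17, with 104 ipsilateral and 71 contralateral cells, which stayed unnamed: its leading genes, among them Enpp6, Tcf7l2 and Nfasc, were those of committed cells, whereas its marker score was highest for mature cells. The 10 genes summed to 8884 CPM ipsilateral and 6893 CPM contralateral in cluster 17, its median cell held 46987 UMIs, and Scrublet, a doublet caller, marked 77 of its ipsilateral and 2 of its contralateral cells. With cluster 17 counted as committed, a choice made after seeing the data, the sum in that class was 6006 CPM ipsilateral and 4988 CPM contralateral, above neuroblast-like cells on both sides.

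Of the 6 main classes, which leave out the few mural-like cells, endothelial-like cells had the highest level for 9 of 10 genes. Mural-like cells were higher still in the sum on the ipsilateral side, at 32714 CPM, but not on the contralateral side, at 18116 CPM. Among the 6 classes Egr1 was highest in OPC-like cells, at 2002 CPM ipsilateral and 1941 CPM contralateral. The span between the lowest and highest class was widest for Atf3, 381-fold ipsilateral and 288-fold contralateral, on 11 and 5 UMIs in the committed class, and for Btg2, 123-fold and 126-fold. It was narrowest for Egr1 on the ipsilateral side, 5.42-fold, and for Jund on the contralateral side, 6.91-fold. All classes of a side come from 1 library and share its dissociation, sort and free RNA. The matrices list kept barcodes only, so free RNA was not measured here, and no class is known to lack these genes.

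Against that background the ipsilateral side tended to be slightly higher. A gene was called when its ratio, taken after adding 5 CPM to both values, reached 1.5-fold, among genes with at least 20 summed UMIs in the class. In OPC-like cells 1 of 10 members was called higher, where 1.5% of the 12184 genes tested were. In mature oligodendrocyte-like cells 2 of 10 were called higher against 0.494% of all genes, in neuroblast-like cells 1 of 10 against 0.503%, and in astrocyte-like cells 1 of 10 against 4.48%. In endothelial-like cells 0 of 10 were called higher against 5.95% of all genes, and in committed cells 5 of the 9 tested against 2.8%.

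In none of these 6 classes was a member called lower. Among all genes tested 1.72% were lower in OPC-like, 1.38% in committed, 0.156% in mature, 0.463% in neuroblast-like, 2.51% in endothelial-like and 3.94% in astrocyte-like cells. The members had a median log2 ratio of 0.10 in OPC-like cells, 0.64 in committed, 0.26 in mature, 0.35 in neuroblast-like, 0.19 in astrocyte-like and 0.21 in cells of the endothelial-like class, whereas the median over all genes tested lay between -0.05 and 0.02. In mural-like cells 7 of 10 were called higher against 13.6% of all genes, and 0 lower against 13.9%, on 15 and 14 cells, where 1 cell held up to 27.4% of the ipsilateral and 48.7% of the contralateral UMIs of a member.

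**Figure D2:**
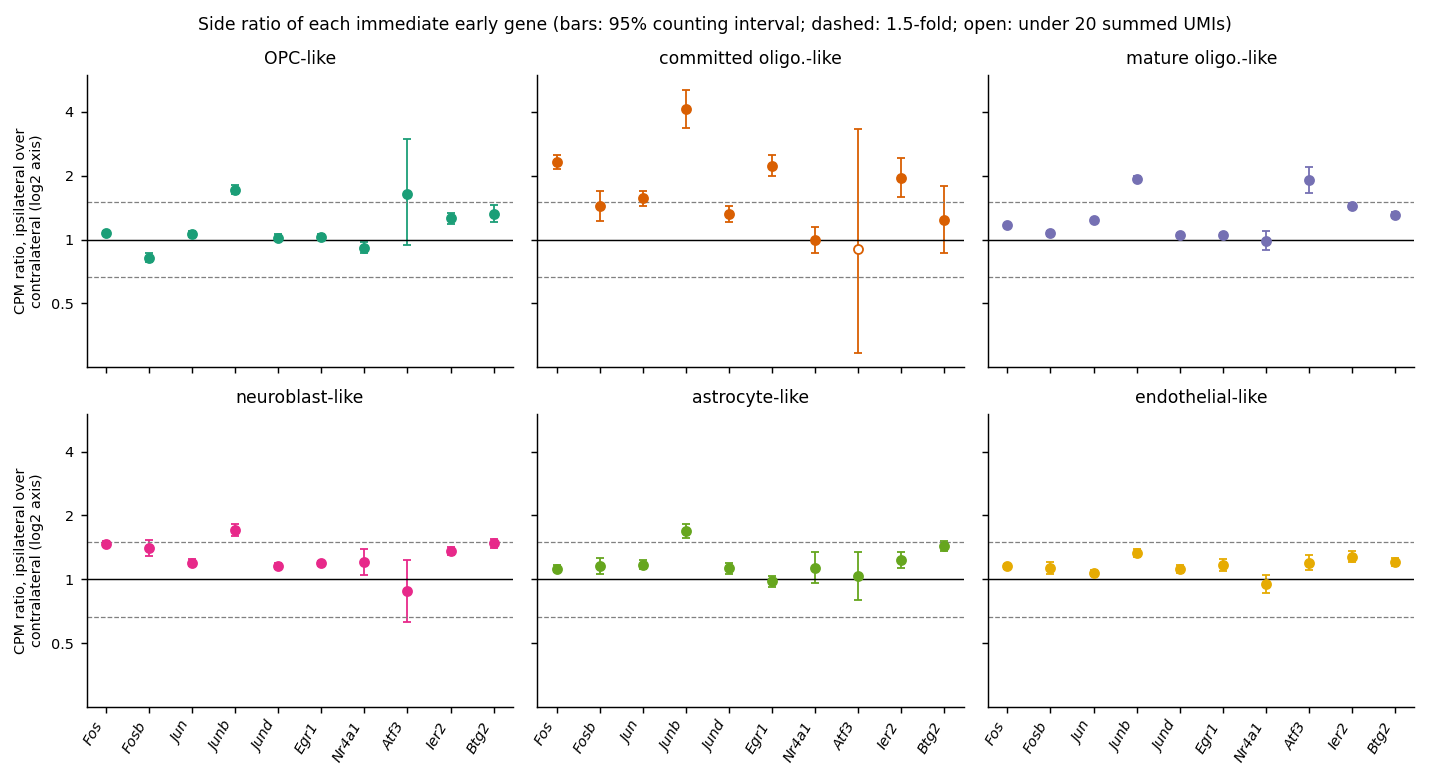
Ratio of CPM, ipsilateral over contralateral, on a log2 axis for each gene in 6 classes, with 95% counting intervals, a solid line at 1 and dashed lines at 1.5-fold either way. Junb lies past the upper line in 5 of 6 panels, and Nr4a1 lies between 0.915 and 1.21 in all 6.

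Junb stood apart from the other AP-1 genes. It encodes a Jun protein that pairs with Fos proteins and is a weaker activator than Jun. Its level was 1007 CPM in ipsilateral and 586 CPM in contralateral OPC-like cells, 904 and 466 CPM in mature oligodendrocyte-like cells, and 277 and 163 CPM in neuroblast-like cells, on the ipsilateral and contralateral side. These are log2 ratios of 0.78, 0.95 and 0.75, larger than those of 99.4%, 99.9% and 99.8% of the genes tested in the class. In astrocyte-like cells Junb was at 1449 CPM ipsilateral and 861 CPM contralateral (log2 ratio 0.75), above 97.7% of the genes tested there. Endothelial-like cells had 3608 CPM ipsilateral and 2707 CPM contralateral (0.41), which missed 1.5-fold. That ratio was less extreme for its class, above 88.6% of the genes tested. The astrocyte-like call held in 9 of 14 alternative settings, with log2 ratios between 0.44 and 0.77.

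The widest Junb gap was in committed cells, 213 CPM ipsilateral and 51.6 CPM contralateral, a plain ratio of 4.12 with a counting interval of 3.37 to 5.09. Junb was also higher in 20 of the 20 clusters with at least 10 cells on both sides, by at least 1.5-fold in 15 of them. Fos, Btg2 and the sum of the 10 genes were higher in 20 of 20 too, by at least 1.5-fold in 7, 6 and 5. Their smallest log2 ratios were 0.04, 0.0013 and 0.03, so some clusters were nearly level. Their widest were in cluster 21, with 26 ipsilateral and 11 contralateral cells. The clusters are parts of the same 2 libraries, not repeats, and the share over all genes was not computed by cluster. The share of Junb in all UMIs of the 10 genes was 7.82% ipsilateral and 4.92% contralateral in OPC-like cells. It was 10.0% and 6.28% in mature cells, and 13.3% and 11.6% in endothelial-like cells. The ipsilateral excess of Junb was thus larger than that of the 10 genes together in these classes.

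The share of cells with a Junb UMI gave the same order after each cell was thinned to 5000 UMIs, which removes the depth difference between the libraries. In mature cells it was 82.6% (exact binomial 95% interval 80.0 to 85.0) ipsilateral and 55.2% (50.8 to 59.5) contralateral, against 95.2% and 82.8% without thinning. In OPC-like cells it was 89.4% (85.8 to 92.2) and 72.9% (67.6 to 77.9), and in committed cells 45.6% (38.6 to 52.7) and 18.1% (10.9 to 27.4). The difference was spread over many cells: the 1% of mature cells with most Junb held 6.20% of its ipsilateral and 8.35% of its contralateral UMIs.

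Junb has a single exon on chromosome 8, from 84974484 to 84978718 on the minus strand (GRCm38, GENCODE M21), and 351 bases of it overlap Prdx2, a peroxiredoxin gene on the opposite strand. Whether counting used the strand is not given in the sources used here. Prdx2 was at 204 CPM ipsilateral and 194 CPM contralateral in mature cells and at 641 and 604 CPM in OPC-like cells, and its log2 ratios over the 6 classes lay between -0.08 and 0.25. The ratio of 0.25 was that of endothelial-like cells, where Prdx2 was at 332 and 279 CPM and Junb had a log2 ratio of 0.41. Whether Prdx2 reads entered the Junb counts was not tested.

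**Figure D3:**
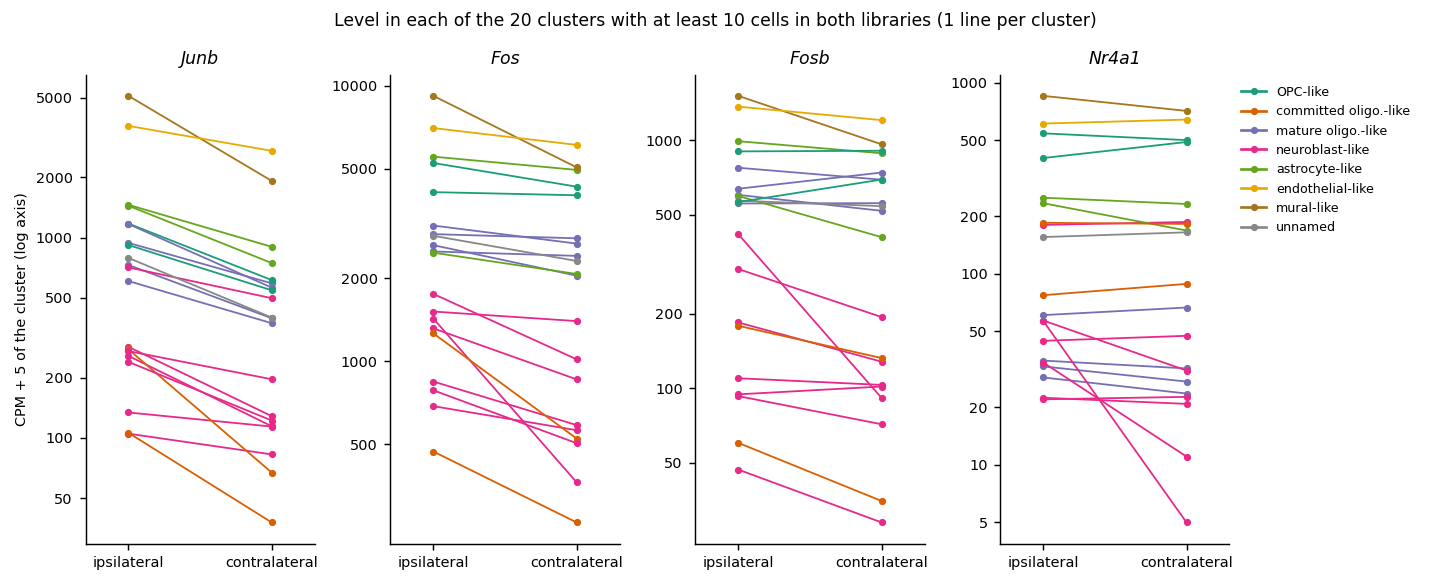
CPM plus 5 of Junb, Fos, Fosb and Nr4a1 in the 20 clusters with at least 10 cells on both sides, ipsilateral on the left and contralateral on the right of each panel, on a log axis, with lines coloured by class. Junb and Fos slope down to the contralateral side in 20 of 20 clusters, Fosb in 15 and Nr4a1 in 12.

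Jun and Jund, the remaining Jun family genes, differed less between the sides. Jun, the strongest activator among them, was at 1913 CPM ipsilateral and 1797 CPM contralateral in OPC-like cells (log2 ratio 0.09), 1917 and 1559 CPM in mature cells (0.30), and 4671 and 4350 CPM in endothelial-like cells (0.10). Jund, which is expressed more steadily than its relatives and responds less to stimuli, was at 1434 and 1403 CPM in OPC-like cells (0.03) and 1084 and 1034 CPM in mature cells (0.07), ipsilateral before contralateral. Both were single-exon genes that overlap an opposite-strand gene, Junos and Gm11175, each at no more than 2.27 CPM in any of the 6 classes on either side.

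Fos, the main partner of Jun in AP-1, was higher in the ipsilateral library in each of the 6 classes, but by less than 1.5-fold outside committed cells. It was at 4522 CPM ipsilateral and 4199 CPM contralateral in OPC-like cells (log2 ratio 0.11), 2821 and 2411 CPM in mature cells (0.23), and 1201 and 815 CPM in neuroblast-like cells (0.56). After thinning, 99.7% of ipsilateral and 97.0% of contralateral OPC-like cells had a Fos UMI, and 96.4% and 90.2% of mature cells. In neuroblast-like cells the shares were 85.4% and 76.6%, and in committed cells 75.5% and 60.6%. Fos was thus detected in nearly every OPC-like cell and in most mature cells on both sides.

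Fosb, a close relative of Fos whose truncated form is known to persist after repeated stimulation, was lower on the ipsilateral side in OPC-like cells, as was Nr4a1. It was at 682 CPM ipsilateral and 831 CPM contralateral there, a plain ratio of 0.821 with a counting interval of 0.782 to 0.862, which stayed short of 1.5-fold. In neuroblast-like cells it was at 155 and 110 CPM (log2 ratio 0.47), and in mature cells at 649 and 606 CPM (0.10), ipsilateral before contralateral. The OPC-like class differed in its clusters between sides: cluster 9 held 220 of 400 ipsilateral and cluster 13 held 223 of 318 contralateral cells. Within cluster 9 Fosb was at 558 CPM ipsilateral and 689 CPM contralateral, and within cluster 13 at 896 and 902 CPM, so the gap was seen in the first cluster and nearly absent in the second.

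Nr4a1, an orphan nuclear receptor, leaned to neither side: it was above 0 in log2 ratio in 2 of the 6 classes and called in 0. It was at 449 CPM ipsilateral and 491 CPM contralateral in OPC-like cells (log2 ratio -0.13), 143 and 144 CPM in committed cells (-0.01), and 37.4 and 37.9 CPM in mature cells (-0.02). In endothelial-like cells it was at 605 and 635 CPM (-0.07). It was above 0 in neuroblast-like cells, at 50.5 and 41.9 CPM (0.24), and in astrocyte-like cells, at 241 and 213 CPM (0.18). Its level thus dropped across the oligodendrocyte lineage from OPC-like to mature cells on both sides, and 77.7% of ipsilateral and 76.2% of contralateral OPC-like cells had an Nr4a1 UMI after thinning, against 13.0% and 11.3% of mature cells.

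Egr1, a zinc finger factor that follows MAP kinase signalling closely, differed by less than 1.5-fold in the main classes outside committed cells. It was at 683 CPM ipsilateral and 651 CPM contralateral in mature cells (log2 ratio 0.07) and 1579 and 1615 CPM in astrocyte-like cells (-0.03). The ratio was wider in neuroblast-like cells, at 1356 and 1137 CPM (0.25), and in endothelial-like cells, at 1343 and 1149 CPM (0.22). In neuroblast-like cells Egr1 made up 23.2% of ipsilateral and 25.3% of contralateral UMIs of the 10 genes, against 7.58% and 8.77% in mature cells.

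Atf3, a stress-induced bZIP factor, was low outside vascular cells. It was at 848 CPM ipsilateral and 708 CPM contralateral in endothelial-like cells (log2 ratio 0.26), against 8.64 and 5.26 CPM in OPC-like cells. In mature cells it was at 35.1 CPM ipsilateral and 18.4 CPM contralateral (0.78), the second call of that class. That call rested on few cells: 8.66% of ipsilateral and 5.38% of contralateral mature cells had an Atf3 UMI after thinning, and the 1% of cells with most Atf3 held 34.3% and 45.6% of its UMIs. The log2 ratio fell short of 1.5-fold at 0.49 with both sides weighted to the same mix of clusters and at 0.32 with at least 1000 genes and at most 10% mitochondrial UMIs, and mature cluster 16, with 50 ipsilateral and 0 contralateral cells, had 98.7 CPM.

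Ier2, a short nuclear protein of the early response, and Btg2, an antiproliferative co-factor of mRNA deadenylation, were higher on the ipsilateral side in all 6 classes. Ier2 was at 429 CPM ipsilateral and 299 CPM contralateral in mature cells (log2 ratio 0.51) and 620 and 491 CPM in OPC-like cells (0.33). Btg2 was at 433 CPM ipsilateral and 293 CPM contralateral in neuroblast-like cells (0.56), 2477 and 1719 CPM in astrocyte-like cells (0.53), and 449 and 343 CPM in mature cells (0.38). None of these ratios reached 1.5-fold. In committed cells Ier2 passed it, at 107 and 54.6 CPM (0.91), whereas Btg2 was at 25.5 and 20.6 CPM on 126 and 42 UMIs.

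Committed cells had 5 of the calls in the 6 classes, more than any other of these classes. Besides Junb and Ier2, the genes past 1.5-fold were Fos, at 983 CPM ipsilateral and 424 CPM contralateral (log2 ratio 1.20), Egr1, at 369 and 166 CPM (1.13), and Jun, at 527 and 337 CPM (0.64). Few cells held much of the signal: of 210 ipsilateral and 95 contralateral cells, the 10% with most UMIs of the 10 genes, after thinning, held 44.0% and 46.9% of them, and 1 contralateral cell held 18.9% of all Fos UMIs there. The calls moved with which cells were counted as committed. With Scrublet doublet calls removed and cells clustered again, 2 of the 5 stayed called, Junb at a log2 ratio of 1.44 and Fos at 0.65, while Egr1 was at 0.27 and Btg2 at -0.59, past 1.5-fold in the other direction. With all variable genes used in clustering, Junb alone was called, at 1.03, and with cluster 17 counted as committed Junb alone again, at 0.90.

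**Figure D4:**
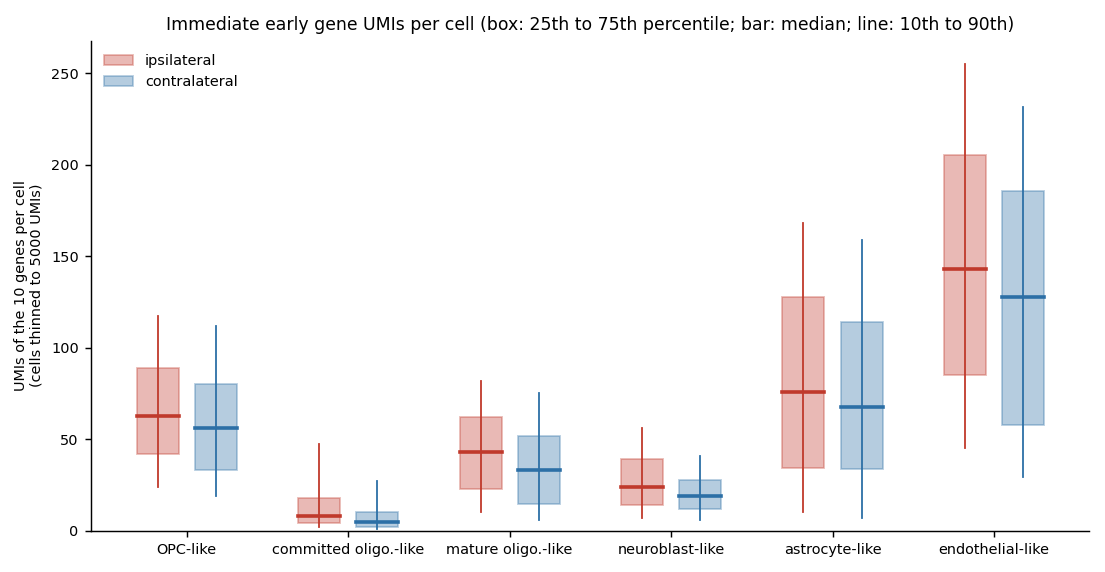
UMIs of the 10 genes per cell after thinning each cell to 5000 UMIs, by class and side: boxes span the 25th to the 75th percentile, thick bars are medians and thin lines run between the 10th and 90th percentiles. Medians run between 8 and 143 on the ipsilateral side and between 5 and 128 on the contralateral side, lowest in committed and highest in endothelial-like cells.

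Nearly all cells had at least 1 UMI of the 10 genes, and the amount varied from cell to cell. Thinned to 5000 UMIs, the median cell had 63 UMIs of the 10 genes in ipsilateral and 56 in contralateral OPC-like cells, 43 and 33 in mature cells, 24 and 19 in neuroblast-like cells and 143 and 128 in endothelial-like cells. Committed cells had a median of 8 and 5. The middle ranges of the sides overlapped in each class, for example 23 to 62 UMIs ipsilateral and 14.8 to 52 UMIs contralateral in mature cells. Cells with 0 UMIs of all 10 genes were 2.94% of ipsilateral and 3.19% of contralateral committed cells, and 0.423% and 0.192% of neuroblast-like cells. Cells under 5000 UMIs were left out, between 4 and 65 of them per class and side outside committed cells.

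The 10 genes varied together between cells of 1 class and side. Over cells, the Pearson correlation of log thinned counts between gene pairs had a median of 0.63 in ipsilateral and 0.62 in contralateral endothelial-like cells, 0.54 and 0.54 in astrocyte-like cells, 0.31 and 0.34 in mature cells, and 0.28 and 0.20 in neuroblast-like cells. The pairs with the highest medians over the 12 class-by-side groups were Fos with Egr1 at 0.64 and Fos with Fosb at 0.63. Pairs with Atf3, taken over 10 groups because no thinned committed cell had an Atf3 UMI, had medians from 0.07 with Nr4a1 to 0.17 with Jun. These cells share their library, free RNA and, within a class, sub-clusters, and the correlation is given as a description. The summed genes correlated with the mitochondrial share of the cell at -0.28 to 0.08.

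**Figure D5:**
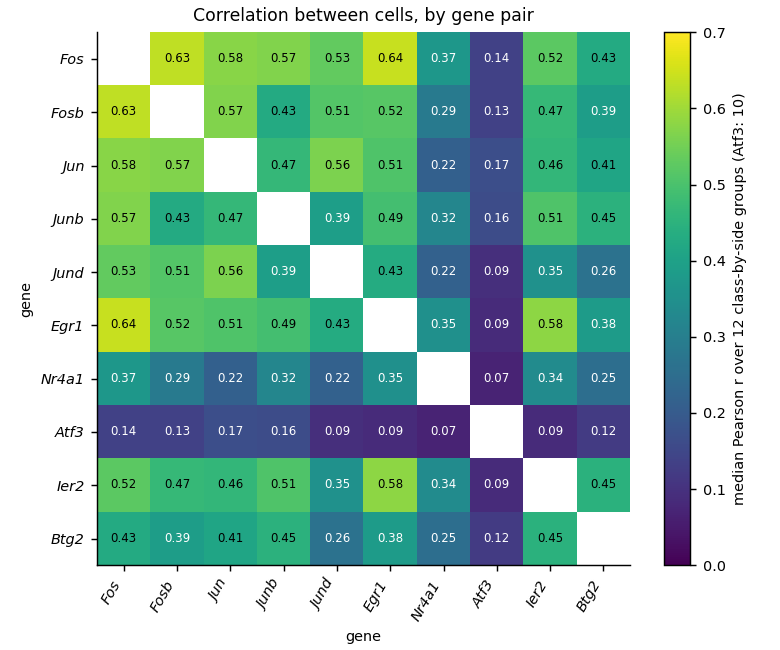
Median Pearson correlation between each pair of the 10 genes over cells thinned to 5000 UMIs, taken over 12 class-by-side groups, or 10 for pairs with Atf3. The Fos, Fosb, Jun and Egr1 block lies between 0.51 and 0.64, and the row of Atf3 between 0.07 and 0.17.

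Outside the list, the genes that followed the 10 most closely within cells included other early response genes and their feedback inhibitors. In 1444 mature cells the highest correlation with the summed members was that of Dusp1, a phosphatase that switches off MAP kinases, at 0.58, followed by the metallothionein gene Mt1 at 0.51, Zfp36, which destroys early response mRNAs, at 0.48, and the heat shock co-chaperone Dnajb1 at 0.48. In OPC-like cells Socs3, an inhibitor of cytokine signalling, led at 0.45, in astrocyte-like cells Klf4 at 0.56, in endothelial-like cells Klf2 at 0.74, in neuroblast-like cells Egr3 at 0.32 and in committed cells Enc1 at 0.40. Across the 12 class-by-side levels, the genes most like the mean profile of the members among 13806 compared were Klf3 (Pearson correlation 0.97), Rapgef3 (0.95), Bola3 (0.94) and Klf4 (0.93), over points that share 2 libraries.

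Of 32 other early response genes, 27 of the 30 tested in mature cells were above 0 in log2 ratio, against 52.3% of all genes. Of the 30, 5 were called higher and 0 lower, against 0.494% and 0.156% of all genes. Their median was 0.32, against 0.01 over all genes. Cebpd, a transcription factor of the acute phase response, was at 41.2 CPM ipsilateral and 8.11 CPM contralateral there (log2 ratio 1.82), and Klf6 at 239 and 154 CPM (0.62). In astrocyte-like cells 23 of 29 were above 0 (median 0.36), against 49.1% of all genes. There 7 were called higher and 0 lower, against 4.48% and 3.94% of all genes. Sgk1 was at 59.9 and 15.9 CPM (1.64) and Klf2 at 432 and 230 CPM (0.89). In neuroblast-like cells 22 of 31 were above 0 (median 0.17), against 56.1% of all genes. There 0 were called higher and 0 lower, against 0.503% and 0.463% of all genes. In OPC-like cells 17 of 30 were above 0 (median 0.11), against 40.8% of all genes. There 4 were called higher and 2 lower, against 1.5% and 1.72% of all genes. Myc was among the higher at 53.9 and 29.2 CPM (0.78), and Cebpb among the lower at 22.1 and 38.3 CPM (-0.67).

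In endothelial-like cells 21 of 29 other early response genes were above 0 (median 0.16), against 54.4% of all genes. There 4 were called higher and 1 lower, against 5.95% and 2.51% of all genes. The lower one was Ctgf, a secreted target of mechanical signalling, at 91.8 CPM ipsilateral and 282 CPM contralateral (log2 ratio -1.57), and Ier3 was among the higher at 449 and 280 CPM (0.67). In committed cells 19 of 26 were above 0 (median 0.30), against 51.2% of all genes. There 4 were called higher and 1 lower, against 2.8% and 1.38% of all genes, with Egr2 at 18.4 and 9.34 CPM (0.71).

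The feedback inhibitors of MAP kinase signalling and mRNA decay factors were mostly level. Calls in this and the next lists stand against the shares of all genes called in each class, given above. Of 16 listed, 1 was called higher in OPC-like, committed and astrocyte-like cells each and 0 in mature, neuroblast-like and endothelial-like cells, and 0 were lower in any of the 6. Zfp36 was at 41.6 CPM ipsilateral and 19.3 CPM contralateral in OPC-like cells (log2 ratio 0.94), and Dusp1 at 69.5 and 24.6 CPM in committed cells (1.33). Of 19 upstream kinases and transcription factors, 0 were called in mature and neuroblast-like cells. In endothelial-like cells 3 were called higher, against 5.95% of all genes. Among them was Srf, the factor that binds CArG boxes, at 55.5 and 25.9 CPM (0.97). In astrocyte-like cells 1 was called higher, Mapk8 (0.91), and 1 each was called lower in OPC-like cells, Elk3 (-0.73), and in committed cells, Crtc2 (-0.60). Of 12 other bZIP partners, 1 was called higher in mature cells, Fosl2 at 4.67 and 1.35 CPM (0.61), and 1 in endothelial-like cells, Ddit3 at 46.7 and 24.1 CPM (0.83). In astrocyte-like cells 1 was called lower, Jdp2 at 9.34 and 19.7 CPM (-0.78), named after its value was seen. Fosl2 and Srf also stand in the list of other early response genes, where their calls were counted too. Of the 9 bZIP partners tested in each, 1 was above 0 among OPC-like (median -0.19), 2 among neuroblast-like (-0.09), 2 among astrocyte-like (-0.24) and 4 among endothelial-like cells (-0.22), where the median over all genes lay between -0.05 and 0.02. Of all genes, 40.8%, 56.1%, 49.1% and 54.4% were above 0 in these classes, in that order. In mature cells 5 of 9 partners were above 0 (0.15), and in committed cells 5 of 8 (0.05), against 52.3% and 51.2% of all genes.

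Heat shock genes, another family that dissociation can induce, had no member called higher in any of the 6 classes. In the few mural-like cells 4 of the 11 tested were called higher and 1 lower, against 13.6% and 13.9% of all genes. In mature cells 6 of 13 were above 0, against 52.3% of all genes, and 2 were called lower, against 0.156%. These were Hspa1a at 28.0 CPM ipsilateral and 59.6 CPM contralateral (log2 ratio -0.97) and Hspa1b at 26.2 and 43.6 CPM (-0.64). In OPC-like cells Hspa1a was at 4.66 and 10.5 CPM (-0.68). Widely expressed genes had a median log2 ratio of 0.20 in OPC-like, 0.22 in committed and 0.05 in mature cells. In neuroblast-like, astrocyte-like and endothelial-like cells the median was 0.02, 0.03 and 0.07. In OPC-like cells, where the members had a median of 0.10, 11 of 12 were above 0, against 40.8% of all genes. There 2 were called higher, against 1.5%. In committed cells 12 of 12 were above 0 and 1 was called higher, against 51.2% and 2.8% of all genes. The ribosomal protein gene Rplp0 was at 1373 CPM ipsilateral and 762 CPM contralateral in OPC-like cells (0.85). A side ratio of the size seen for Junb in OPC-like cells thus also occurred in that list.

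Signs of other cells differed between the sides for some lists. The summed markers of mature oligodendrocytes were at 1698 CPM in ipsilateral and 1108 CPM in contralateral neuroblast-like cells, 2936 and 2017 CPM in astrocyte-like cells, and 2835 and 1685 CPM in endothelial-like cells. Blood cell markers were at 0.805 CPM in ipsilateral and 7351 CPM in contralateral endothelial-like cells, nearly all of it from the 3 haemoglobin genes listed. The 11 microglia or macrophage markers summed to at most 4.02 CPM ipsilateral and 6.03 CPM contralateral in these 6 classes. Their part in the side ratios was not tested, except that cells without a microglia marker UMI gave Junb log2 ratios between 0.39 and 1.91, with the same calls.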

How the data were processed

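Deposited values are whole-number counts of UMIs for every gene in every barcode, from Cell Ranger 3.1.0 with the mm10 build, per the submitters' processing notes, which give no alignment options, chemistry or annotation. The members and gene lists were chosen with earlier results of these data known. Barcodes were kept with at least 500 genes and at most 15% mitochondrial UMIs, doublets included. Both libraries were scaled to 10000, log-transformed and clustered together (scanpy 1.11.5, 2000 variable genes without the members and lists, 30 components, 15 neighbours, Leiden resolution 1, 23 clusters). A cluster took the class whose markers scored highest, and stayed unnamed with a best score under 0.3, under 3 markers, a close second class or leading genes of another class. UMIs were summed per class and library, and log2 ratios, ipsilateral over contralateral, were taken after adding 5 CPM, which understates changes of low genes. Poisson and exact binomial 95% intervals cover counting error only. The named genes are all members, for each list up to 4 genes with at least 50 UMIs and the widest ratios in a class, and the 6 genes most correlated with the members, of which the text prints the leading ones. The ratio step was tested on simulated counts.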

Additional observations from a re-analysis of the deposited data

How the results depend on the processing

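No paired analysis was possible because each side is 1 library, and for the same reason no replicate could be left out. Of 826 recomputed member ratios under 14 alternatives in the 6 main classes, 716 stayed within the counting interval of the main value, 110 left it, 32 changed sign and 0 of the called ones reversed. Junb kept its sign in all 14 in each class, with log2 ratios of 0.75 to 0.85 in OPC-like, 1.02 to 2.50 in committed, 0.89 to 0.98 in mature, 0.64 to 0.85 in neuroblast-like, 0.44 to 0.77 in astrocyte-like and 0.37 to 0.43 in endothelial-like cells.

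The number of members at least 1.5-fold higher was 1 in OPC-like cells, and 2 with 1 CPM added or with the same mix of clusters. In committed cells it was 5, against 1 without a filter on barcodes, 2 with Scrublet calls removed, which fell on 77 of 104 ipsilateral and 2 of 71 contralateral cells of cluster 17, 8 with each library clustered alone and 1 with all variable genes used, and 1 with cluster 17 counted as committed, an alternative chosen after seeing the data; the cause was not tested. In mature cells it was 2, and 1 with 20 CPM added, with each library clustered alone or with the same mix of clusters. The genes counted there were Junb in all 14 alternatives, Atf3 in 10 and Ier2 in 1. In neuroblast-like cells the number was 1, and 2 with the stricter filter (1000 genes, 10% mitochondrial) or at Leiden resolution 2. In astrocyte-like cells it was 1, and 0 with that filter, at resolution 0.5 or 2, or with all variable genes. The gene counted there was Junb in 9 of the 14 alternatives and Atf3 in 1. With 2-fold as the limit, 3 members were past it in committed cells and 0 in each remaining main class, endothelial-like cells included. The share of all tested genes past 2-fold is not given here, so whether these counts are unusual cannot be read from them. The 6 class counts did not change in cells without microglia marker UMIs or with totals free of mitochondrial and ribosomal protein genes.

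Thinned to 2500 or 10000 UMIs, 106 of 120 differences in the share of cells moved by less than their interval, and 30 changed sign or were 0 in one of the settings. Of 108 list medians 101 moved by less than 0.1 on the log2 scale, and that of other early response genes in mature cells ran between 0.12 and 0.50 with 20 and 1 CPM added. Depth limits Atf3 most, with 11 ipsilateral and 5 contralateral UMIs in committed cells.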
